A study of Homo sapiens with 4 samples.

Results

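The genes described here encode nuclear subunits of the mitochondrial respiratory chain, the 5 complexes that carry electrons from nutrients to oxygen and make ATP. They were chosen by name alone, as the names that fully match NDUFA, NDUFB, NDUFC, NDUFS or NDUFV with a number, SDHA to SDHD, UQCR genes, COX4 to COX8 genes and ATP5 genes. Of 26485 gene names in the files, 84 matched, and the 2 pseudogenes ATP5EP2 and UQCRBP1 were left out, so 82 genes remained. Complex I was represented by 36 genes, complex II by 4, complex III by 9, complex IV by 15 and complex V, the ATP synthase, by 16. NDUFA4 was counted in complex IV, where its product is found. ATP5S and ATP5SL carry the ATP5 name without being subunits of a complex and were kept outside the 5 complexes.

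SW1736 and 8505C are established cell lines from human anaplastic thyroid cancer (ATC), and paclitaxel (PTX), a taxane, stabilizes microtubules and so blocks mitosis. In the study, each line was grown for 6 months in paclitaxel raised from 1 nM to 1.5 µM, and the resistant cells, SW1736-PTX and 8505C-PTX, stayed in 1.5 µM paclitaxel, while the wild-type (wt) cells of each line were grown in the same medium without the drug. The mRNA of each of the 4 kinds of cell was sequenced once, and whether the resistant cells were a clone or a mixed population is not given in the sources used here. With 1 library per condition, the spread between cultures is unknown, no p-value was computed, and each difference compares these libraries only.

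The electron-carrying complexes work in series. Complex I, the NADH dehydrogenase, and complex II, the succinate dehydrogenase, pass electrons to ubiquinone, complex III hands them to cytochrome c, and complex IV, the cytochrome c oxidase, reduces oxygen. Complexes I, III and IV pump protons as they do so, and complex V lets the protons return to drive ATP synthesis. The catalytic centres of complexes III and IV and the membrane arm of complex I contain subunits made from mitochondrial DNA, as does the proton channel of complex V, whereas complex II is encoded by the nucleus alone. The files name 0 of the 13 protein genes of mitochondrial DNA, so that the nuclear side of the chain is the side described here.

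Before the results, the labels were compared with the values. Across 14692 expressed genes, the log2 level in SW1736-PTX correlated with that in SW1736 wt at r = 0.77, with that in 8505C wt at r = 0.87 and with that in 8505C-PTX at r = 0.93. The thyroid lineage gene PAX8 was at 38.2 FPKM (SW1736 wt) and 0.206 (SW1736-PTX), and at 0.123 (8505C wt) and 0.146 (8505C-PTX), and NKX2-1 was listed at 0 in SW1736 wt and lay at 36.3, 30.5 and 39.0 FPKM in the other libraries. The library labelled SW1736-PTX therefore lay nearer to both 8505C libraries than to SW1736 wt. The respiratory genes behaved in the same way, since their median absolute log2 difference from SW1736-PTX was 0.47 for SW1736 wt, 0.29 for 8505C wt and 0.16 for 8505C-PTX. A difference between SW1736-PTX and SW1736 wt can hold a difference between cell lines as well as one between sensitive and resistant cells, and these cannot be told apart here, so values against 8505C wt are given beside those against SW1736 wt. The name SW1736-PTX is used for the library that carries that label.

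The libraries held between 43.5 and 57.9 M aligned reads, and each resistant library was deeper than its wt library and listed fewer genes at 0. Of 7 thyroid markers, 1 or 2 were above 0.5 FPKM in a library, with a summed level between 30.7 and 64.8 FPKM, and the differentiation markers TSHR and SLC5A5 were listed at 0 in all 4 libraries. Of 5 epithelial markers, 3 were above 0.5 FPKM, with summed FPKM of 1501 and 3492 in the wt and PTX cells of SW1736 and 1272 and 3058 in those of 8505C. Of 4 leukocyte markers, PTPRC, CD3E and MS4A1 were at or near 0, while CD14 was at 0.894 and 0.707 FPKM in the wt and PTX cells of SW1736 and 0.576 and 4.50 in those of 8505C. The 3 endothelial markers summed to 0.0187 and 0.427 FPKM in SW1736 and to 55.9 and 4.82 in 8505C, where CDH5 made up nearly all of the sum. The mesenchymal markers VIM and FN1 summed to 4818 and 1844 FPKM in SW1736 and to 1509 and 1591 in 8505C. The sums of 4 muscle markers lay between 0.0561 and 4.61 FPKM, the highest in 8505C-PTX. The part of line identity, depth and these markers in the differences that follow was not tested.

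Transcription of these genes is governed in many tissues by nuclear respiratory factor 1 (NRF1), by the ETS family factor GABP, which has been called nuclear respiratory factor 2, and by YY1, with the coactivator PPARGC1A acting on top of them. The bases around 2 of 3 short motifs are shown because they are the letters these factors read in the promoters of the chain. RefSeq promoters on GRCh38.p14, from 250 bases before to 50 bases after the start of the gene, were matched for 66 of the 82 genes and searched on both strands. The NRF1 motif GCGCATGCG occurred in 10 of the 66 (15.2%, against 2.10% of all 27305 promoters), among them those of ATP5J, ATP5G2, ATP5C1, ATP5I, NDUFS6, NDUFB4, COX6A1 and SDHD. The ETS motif CCGGAAGT occurred in 9 of the 66 (13.6%, against 4.44% of all promoters), among them those of ATP5H, COX5B, COX8A, UQCRH, UQCRQ and SDHD. The YY1 motif AAGATGGCG occurred in 8 of the 66 (12.1%, against 1.85%), among them those of ATP5J, SDHB and UQCRC1. The following windows, 5′ to 3′ on the strand of the gene and with the motif in capitals, end before the start of the gene in the deposited files, and a motif on the opposite strand reads CGCATGCGC or ACTTCCGG.
SDHD, complex II membrane anchor, NRF1 motif, chr11:112086738-112086796, + strand: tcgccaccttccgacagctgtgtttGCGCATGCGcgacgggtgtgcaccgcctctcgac
NDUFB4, complex I accessory subunit, NRF1 motif, chr3:120596152-120596210, + strand: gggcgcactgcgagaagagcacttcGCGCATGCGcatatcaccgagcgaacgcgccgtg
COX6A1, complex IV subunit, NRF1 motif, chr12:120437869-120437927, + strand: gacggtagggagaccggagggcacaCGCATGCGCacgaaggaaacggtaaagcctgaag
COX5B, complex IV subunit, ETS motif, chr2:97646000-97646057, + strand: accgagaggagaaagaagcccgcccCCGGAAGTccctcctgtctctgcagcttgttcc
UQCRQ, complex III accessory subunit, ETS motif, chr5:132866563-132866620, + strand: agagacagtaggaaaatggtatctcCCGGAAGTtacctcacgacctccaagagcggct
ATP5H, complex V stalk subunit, ETS motif, chr17:75047039-75047096, - strand: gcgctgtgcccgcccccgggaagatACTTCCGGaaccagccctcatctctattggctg
The windows come from genes of all 5 complexes. The presence of a motif is a description of the letters and not of binding, and the levels of the genes that carry one are given with their complexes.

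The level of a gene is given as FPKM, the number of aligned reads scaled to the length of the gene and the depth of the library, so that levels can be set side by side between genes and libraries. The respiratory genes were abundant. Over those above 0.5 FPKM in a library, the median FPKM was 89.8 and 81.1 in the wt and PTX cells of SW1736 and 81.5 and 78.5 in those of 8505C. Above 100 FPKM lay 33, 31, 29 and 30 of the 82 genes, in the same order. The gene with the highest level in every library was ATP5E, the epsilon subunit in the head of the ATP synthase, with 718 and 438 FPKM in the wt and PTX cells of SW1736 and 516 and 392 in those of 8505C. Between 76 and 77 of the 82 genes were above 0.5 FPKM in a library, and those at or near 0 were isoforms and copies with a restricted tissue range.

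The 82 genes together held 2.06% of the TPM (the FPKM rescaled so that every library has one common total) of SW1736 wt, 1.67% of SW1736-PTX, 1.90% of 8505C wt and 1.60% of 8505C-PTX. Both resistant libraries thus held a smaller share than either wt library, and in bulk RNA fewer cells expressing a gene and less of its RNA per cell cannot be told apart. Complex V contributed most to the gap, with 0.665% of the TPM in SW1736 wt, 0.433% in SW1736-PTX, 0.586% in 8505C wt and 0.445% in 8505C-PTX. Complex I held 0.740%, 0.678%, 0.692% and 0.612%, in the same order. Complex IV held 0.425%, 0.350%, 0.383% and 0.343%. Complex III held 0.166%, 0.134%, 0.147% and 0.129%. In complexes I, III, IV and V each resistant library was below both wt libraries. Complex II departed from this order, with 0.0537% in SW1736 wt, 0.0646% in SW1736-PTX, 0.0820% in 8505C wt and 0.0635% in 8505C-PTX, so that the resistant libraries lay between the wt libraries.

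**Figure D1:**
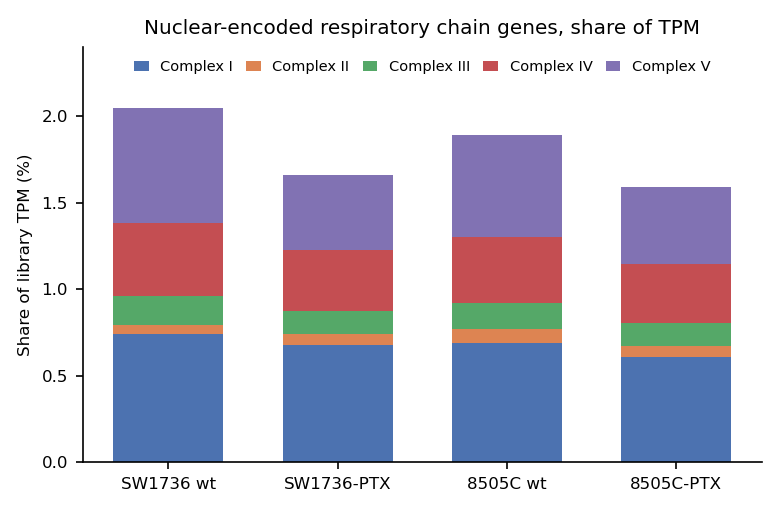
Share of the TPM of each library, in percent, held by the nuclear-encoded respiratory chain genes, stacked by complex, for the 4 libraries (1 per condition, so no error bar). The stacks are lower in SW1736-PTX and 8505C-PTX than in either wt library, and the segment of complex V shrinks from 0.665% to 0.433% in SW1736 and from 0.586% to 0.445% in 8505C.

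Gene by gene, the log2 ratio of PTX to wt was taken after adding 0.1 to each FPKM, an addition that shrinks the ratio of weakly expressed genes. Genes above 0.5 FPKM in at least 1 library of a pair were compared, and a log2 difference beyond 1.5 (2.83-fold) in either direction was called, which are the limits the study used. Of the 82 genes, 77 could be compared in SW1736 and 76 in 8505C. COX6A2, COX7A1, COX7B2, COX8C and ATP5L2 could be compared in neither line, and COX6B2 in SW1736 only. In SW1736, 6 of the 77 genes were called lower in the resistant library (7.79%, against 10.2% of all genes compared) and 1 was called higher (1.3%, against 15.7%). In 8505C, 1 of the 76 was called lower (1.32%, against 5.89% of all genes compared) and 0 higher (against 15%). The shares called lower and higher were thus under those of all genes in both lines. Among genes with a mean above 20 FPKM, 7.54% were called lower and 6.81% higher in SW1736, so that the share of respiratory genes called lower there was near that of abundant genes, and 6.48% were called lower and 5.87% higher in 8505C. The called genes were ATP5J2, NDUFB2, ATP5J, NDUFA5, UQCR10 and COX7B, which were lower in SW1736-PTX, COX6B2, which was higher in it, and ATP5J2, which was also lower in 8505C-PTX.

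The smaller shifts leaned downward. Beyond 0.5 on the log2 scale (1.41-fold), 27 of the 77 genes were lower in SW1736-PTX (35.1%, against 32% of all genes compared) and 8 were higher (10.4%, against 33%). In 8505C-PTX, 20 of the 76 were lower (26.3%, against 26.3%) and 1 was higher (1.32%, against 35.3%). In both lines the share of lower genes was near the background, while the share of higher genes was below it. The median log2 difference of the respiratory genes was -0.18 in SW1736 (all genes compared, 0.01) and -0.13 in 8505C (all genes, 0.11). Abundant genes as a whole showed much the same shift, since the genes with a mean above 20 FPKM had a median of -0.16 in SW1736 and of -0.20 in 8505C. Among those abundant genes, 22.9% were higher beyond 0.5 in SW1736-PTX and 35.4% lower, and in 8505C-PTX 21.4% were higher and 35.6% lower. When SW1736-PTX was set against 8505C wt, the median was -0.12, with 18 genes lower beyond 0.5 (25.1% of all genes) and 6 higher (34.9% of all genes). At the larger limit, 2 were lower (5.23% of all genes) and 1 higher (15.1% of all genes).

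In the comparison of the complexes, the lowest median was that of complex V in SW1736, at -0.63, where the medians of complexes I to IV were -0.20, -0.17, -0.18 and -0.15. In 8505C the median of complex V was -0.40 and that of complex II -0.35, while complexes III, I and IV had medians of -0.24, -0.10 and -0.01. Against 8505C wt, the SW1736-PTX library had a median of -0.33 in complex V, 0.01 in complex I, -0.25 in complex II, -0.12 in complex III and 0.08 in complex IV. Complex V was lowest in all 3 comparisons, of which the last shares a library with each of the others. The genes of every complex overlapped widely with those of the others, as complex V ran from -2.53 to 0.92 in SW1736 and complex I from -2.25 to 1.06.

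**Figure D2:**
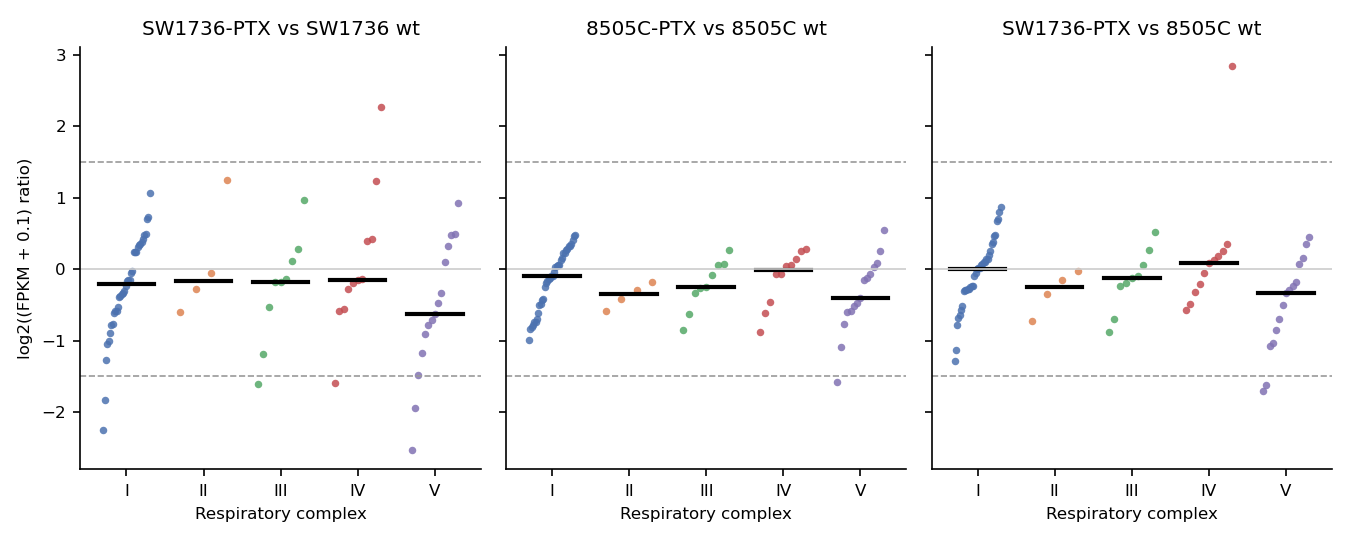
Log2 ratio of FPKM (0.1 added) for every compared respiratory gene, as points grouped by complex, with the median of each complex as a bar and the limit of 1.5 as dashed lines, for SW1736-PTX against SW1736 wt, 8505C-PTX against 8505C wt and SW1736-PTX against 8505C wt. The bar of complex V is the lowest in each panel (-0.63, -0.40 and -0.33), and the points of all complexes overlap.

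Between the lines, 11 of the 76 genes compared in both were lower beyond 0.5 in both resistant libraries (14.5%, against 15.6% of 13304 genes) and 0 were higher in both (against 20.9%). The 11 genes were NDUFA5, NDUFA9, NDUFB2, NDUFB3 and NDUFB5 of complex I, UQCRFS1 of complex III, COX7B of complex IV, and ATP5F1, ATP5G3, ATP5J and ATP5J2 of complex V. Complex II had none. Across the 76 genes, the log2 differences of both lines correlated at r = 0.52, beside r = 0.50 across all genes compared in both lines. These 2 comparisons have no library in common, although the likeness of SW1736-PTX to the 8505C libraries applies to them as well.

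Complex V showed the largest single difference. ATP5J2, a small membrane subunit of the ATP synthase (chromosome 7, 99458161 to 99466201, minus strand, hg38), stood at 481 FPKM in the wt and 83.2 in the PTX cells of SW1736, and at 257 and 85.8 in those of 8505C. Both resistant libraries were far below both wt libraries and close to each other. The log2 difference was -2.53 in SW1736 and -1.58 in 8505C, or 0.173 and 0.334 times the wt level, and -1.63 for SW1736-PTX against 8505C wt. The readthrough transcript ATP5J2-PTCD1, which covers the same gene, was at 1.07 FPKM in SW1736 wt and listed at 0 in the other libraries, so that reads may be assigned to either name.

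Of the peripheral stalk, which holds the head of the enzyme still, 3 of 4 genes were lower beyond 0.5 in SW1736-PTX and 2 of 4 in 8505C-PTX. Of all genes compared, 32% and 26.3% were lower beyond that limit, and of genes with a mean above 20 FPKM, 35.4% and 35.6%. With 4 genes, no difference from these shares can be read. ATP5J, coupling factor 6, was at 77.0 FPKM (SW1736 wt) and 19.98 (SW1736-PTX), and at 65.4 (8505C wt) and 42.9 (8505C-PTX). It was lowest in SW1736-PTX, with log2 differences of -1.94 in SW1736, -0.61 in 8505C and -1.71 for SW1736-PTX against 8505C wt. ATP5O, the subunit that joins stalk and head, was at 130, 46.5, 98.4 and 101 FPKM. Here the lower level was found in SW1736-PTX (log2 -1.48), and the 8505C libraries lay within 0.03 of each other. ATP5F1, the b subunit of the stalk, was at 89.9, 52.2, 93.9 and 55.1 FPKM, a log2 difference of -0.78 in SW1736 and of -0.77 in 8505C, with both resistant libraries below both wt libraries. ATP5H, the d subunit, with the ETS motif shown above, was at 122, 153, 138 and 146 FPKM, with a log2 difference of 0.33 in SW1736 and 0.09 in 8505C.

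The c-ring, the proton-driven rotor, is built from 1 protein that 3 genes encode, and these genes moved apart. ATP5G1 stood at 138 FPKM in the wt and 109 in the PTX cells of SW1736, and at 223 and 105 in those of 8505C (log2 -0.34 and -1.09). ATP5G3 was at 93.3, 41.1, 66.8 and 44.6 FPKM (log2 -1.18 and -0.58). ATP5G2 was at 137, 192, 150 and 220 FPKM (log2 0.48 and 0.55). In both resistant libraries ATP5G2 was thus the most abundant of the 3 genes and ATP5G1 and ATP5G3 were below their level in either wt library, whereas in 8505C wt ATP5G1 was the most abundant. ATP5G2 was also the gene with the largest increase among the 76 respiratory genes compared in 8505C.

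The F1 head, which holds the catalytic sites, had a median of -0.47 in SW1736 and -0.16 in 8505C over 5 genes. The beta subunit gene ATP5B was at 324 FPKM (SW1736 wt) and 234 (SW1736-PTX), and at 333 (8505C wt) and 232 (8505C-PTX) (log2 -0.47 and -0.52). The alpha subunit gene ATP5A1 was at 105, 149, 168 and 160 FPKM (log2 0.49 and -0.07), so that the 3 libraries other than SW1736 wt were alike. ATP5E had log2 differences of -0.71 and -0.40, and ATP5C1, the gamma subunit, was at 173, 92.02, 113 and 101 FPKM (log2 -0.91 and -0.16). ATP5I, a membrane subunit at the dimer interface, had the highest log2 difference of complex V in SW1736, with 76.5, 145, 138 and 126 FPKM and log2 differences of 0.92 and -0.13. As with ATP5A1, it was SW1736 wt that stood apart.

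In complex I, 12 of 36 genes were lower beyond 0.5 in SW1736-PTX and 3 were higher, and in 8505C-PTX 9 were lower and 0 higher. Of all genes compared, 32% were lower and 33% higher in SW1736-PTX and 26.3% lower and 35.3% higher in 8505C-PTX, so that the number of lower genes in complex I was near the background. The 29 accessory genes, whose products surround the catalytic core, had medians of -0.30 in SW1736 and -0.13 in 8505C, and both called genes were among them. NDUFB2 (chromosome 7, 140696681 to 140706646, plus strand) stood at 122 FPKM in the wt and 25.5 in the PTX cells of SW1736, and at 62.3 and 31.3 in those of 8505C. Both resistant libraries were lower than both wt libraries, with log2 differences of -2.25 in SW1736, -0.99 in 8505C and -1.29 against 8505C wt. NDUFA5 (chromosome 7, 123536998 to 123601651, minus strand) was at 10.8, 2.96, 6.60 and 3.65 FPKM, with log2 differences of -1.84, -0.84 and -1.13. It was among the least abundant subunits, and again the resistant libraries were the lower ones. The antisense gene NDUFB2-AS1 was also lower in both resistant libraries (1.17, 0.259, 0.724 and 0.257 FPKM), and whether reads were counted by strand is not given in the sources used here.

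The largest increase of complex I in SW1736 was that of NDUFB9, with 123 and 256 FPKM in the wt and PTX cells of SW1736 and 245 and 229 in those of 8505C. SW1736 wt alone was low, so that the log2 difference was 1.06 in SW1736, -0.10 in 8505C and 0.07 for SW1736-PTX against 8505C wt. NDUFA11, a subunit of the membrane arm, was at 87.2, 141, 81.0 and 113 FPKM and had the largest increase of complex I in 8505C (log2 0.69 and 0.48), with both resistant libraries above both wt libraries. NDUFS6, which binds zinc and had the highest mean level of complex I, was at 224, 265, 322 and 188 FPKM (log2 0.24 and -0.78). NDUFB4, with the NRF1 motif shown above, was at 137, 169, 208 and 153 FPKM (log2 0.30 and -0.44).

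In complex II, all 4 genes are nuclear and also serve the citric acid cycle. SDHA, the flavoprotein that oxidizes succinate (chromosome 5, 218223 to 257082, plus strand), was at 69.2 FPKM (SW1736 wt) and 165 (SW1736-PTX), and at 183 (8505C wt) and 150 (8505C-PTX). The SW1736 wt library was low and the other libraries were alike, so that the log2 difference was 1.25 in SW1736, -0.29 in 8505C and -0.15 for SW1736-PTX against 8505C wt. SDHB, the iron-sulphur subunit, was at 73.5, 60.7, 77.1 and 51.3 FPKM (log2 -0.28 and -0.59), with both resistant libraries below both wt libraries. The membrane anchors SDHC and SDHD also had both resistant libraries below both wt libraries, SDHC by a small margin in SW1736-PTX. SDHC was at 20.5, 19.8, 20.2 and 15.2 FPKM (log2 -0.05 and -0.41). SDHD, whose promoter holds both the NRF1 and the ETS motif, was at 72.1, 47.4, 78.1 and 69.2 FPKM (log2 -0.61 and -0.17). The pseudogene copies SDHAP1, SDHAP2 and SDHAP3 were at 9.25, 11.5 and 2.18 FPKM in SW1736 wt and at 6.22, 6.14 and 0.598 in SW1736-PTX, so that reads shared with SDHA make its level uncertain to that extent.

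In complex III, UQCR10, a small accessory subunit (chromosome 22, 29767369 to 29770413, plus strand), stood at 118 FPKM in the wt and 38.7 in the PTX cells of SW1736, and at 71.5 and 60.3 in those of 8505C. It was called in SW1736 (log2 -1.61), while the 8505C libraries differed by -0.24 and SW1736-PTX lay 0.88 under 8505C wt on the log2 scale. UQCRFS1, the Rieske iron-sulphur protein and the one catalytic subunit of complex III that the nucleus encodes among these genes, was at 78.0, 34.1, 55.3 and 30.5 FPKM. Both resistant libraries were below both wt libraries, with log2 differences of -1.19 and -0.86. UQCRB was at 30.1, 58.8, 56.5 and 59.5 FPKM (log2 0.96 and 0.08), again with SW1736 wt as the library that stood apart. The core protein genes UQCRC1 and UQCRC2 stayed within 0.3 of their wt level on the log2 scale in both lines, and UQCRC1 was at 92.5, 100.03, 82.9 and 99.8 FPKM. UQCRH was at 171, 152, 165 and 138 FPKM (log2 -0.18 and -0.26), and its near-identical copy UQCRHL was at 28.0, 24.7, 28.3 and 18.4 FPKM, which may include reads of UQCRH. UQCRQ, with the ETS motif shown above, was at 56.8, 39.2, 46.1 and 36.7 FPKM (log2 -0.54 and -0.33).

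In complex IV, COX7B (chromosome X, 77899464 to 77905384, plus strand) was at 314 FPKM (SW1736 wt) and 104 (SW1736-PTX), and at 156 (8505C wt) and 84.7 (8505C-PTX). Both resistant libraries were lower than both wt libraries, and the log2 difference was -1.59 in SW1736, -0.88 in 8505C and -0.58 for SW1736-PTX against 8505C wt, so that the call in SW1736 was not made against 8505C wt. COX6C was at 63.7, 150, 126 and 154 FPKM (log2 1.24 and 0.28), with SW1736 wt alone at a low level. COX5B, with the ETS motif shown above, was at 211, 173, 152 and 169 FPKM (log2 -0.28 and 0.15). COX8A was at 327, 221, 310 and 225 FPKM (log2 -0.56 and -0.46), the resistant libraries lying below the wt libraries in both lines. COX7C, the subunit with the highest mean level of complex IV, was at 242, 323, 305 and 314 FPKM (log2 0.41 and 0.04).

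Several complex IV subunits have a ubiquitous form and a form restricted to muscle, testis or other tissues. The ubiquitous COX6A1 was at 155, 139, 145 and 138 FPKM and COX7A2 at 92.7, 121, 140 and 145 FPKM, while the heart and muscle form COX6A2 was listed at 0 in all libraries and COX7A1 did not exceed 0.132 FPKM. COX7B2 and COX8C were listed at 0 in all libraries. COX6B1 was at 263, 175, 137 and 164 FPKM. Its counterpart COX6B2, known from testis, was at 0.0492 FPKM (SW1736 wt) and 0.616 (SW1736-PTX), listed at 0 in 8505C wt and at 0.337 in 8505C-PTX. It was the one gene called higher, at a log2 difference of 2.26 in SW1736, and stood for about 4 reads in SW1736 wt and 56 in SW1736-PTX, with a standard error from counting of 0.77 on the log2 scale. No fold is given for 8505C, where the wt library was at 0. The ubiquitous form was more than 100 FPKM above it in every library.

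**Figure D3:**
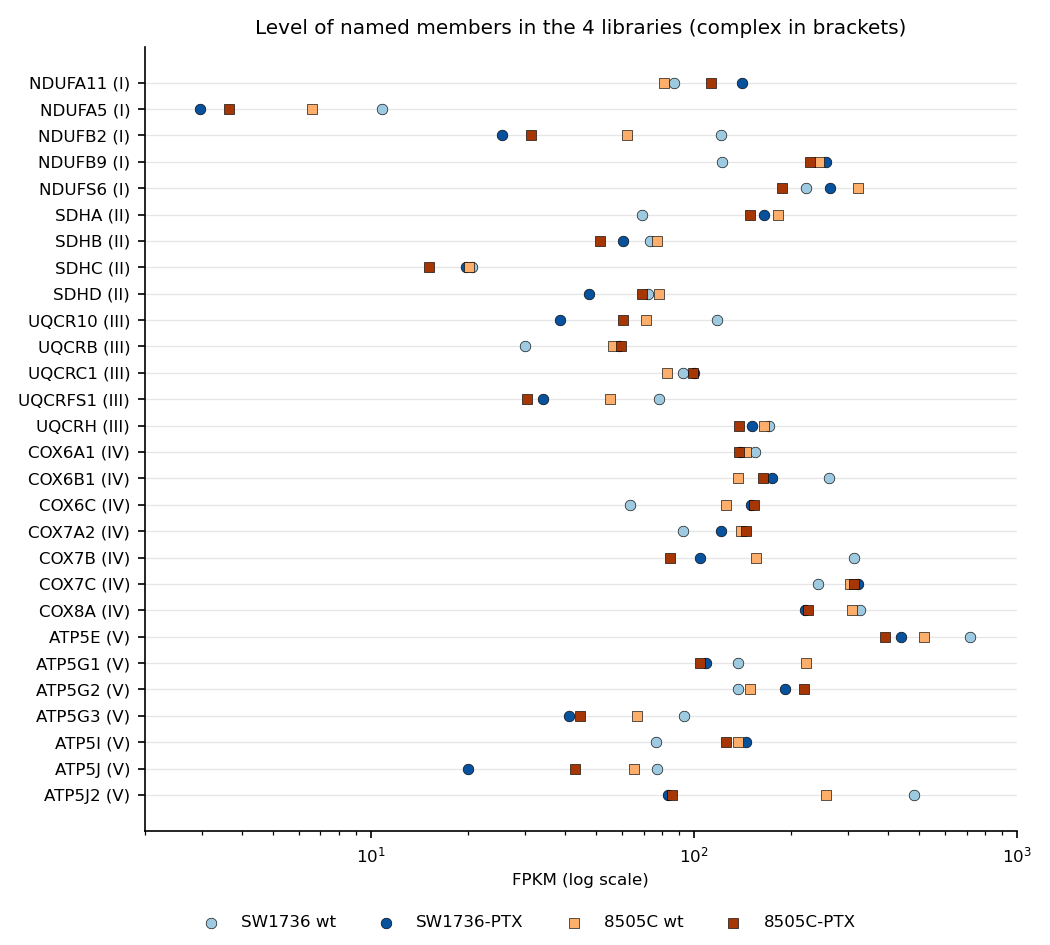
Level in FPKM, on a log axis, of the named respiratory genes above 1 FPKM in each of the 4 libraries (circles for SW1736, squares for 8505C, light for wt and dark for PTX; 1 library per point). For ATP5J2, NDUFB2, NDUFA5, UQCRFS1 and COX7B both dark symbols lie left of both light ones, whereas for NDUFB9, SDHA, UQCRB and COX6C the light circle of SW1736 wt alone lies to the left.

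Those last cases led to a comparison of the wt libraries with each other. Against SW1736 wt, 8505C wt had 11 of 76 genes higher beyond 0.5 (14.5%, against 22.9% of all genes compared) and 16 lower (21.1%, against 31.2%), with a median of -0.08, and no gene was beyond 1.5 (7.73% of all genes were higher and 9.92% lower beyond that limit). The largest differences were SDHA, at 1.40 higher in 8505C wt, and NDUFB11, at 1.04 lower. The median absolute difference between the wt libraries was 0.36, beside 0.47 between the SW1736 libraries and 0.28 between the 8505C libraries.

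The position of the genes on the chromosomes was set beside these values. For each respiratory gene the median log2 difference of the other expressed genes within 5 Mb was taken, over 17 to 238 neighbours in SW1736. Across the 77 genes, the difference of a gene correlated with that of its neighbours at r = 0.76 (rho = 0.69) in SW1736. It correlated at r = 0.46 (rho = 0.40, 76 genes) in 8505C, at r = 0.65 for SW1736-PTX against 8505C wt and at r = 0.82 for 8505C wt against SW1736 wt. These are descriptions across genes that share the same libraries, and genes near one another share neighbours. Of the 27 genes lower beyond 0.5 in SW1736-PTX, 14 had a neighbourhood median that was also below -0.5, and of the 20 in 8505C-PTX, 4 had one. The share of all compared respiratory genes with such a neighbourhood was not counted, so these counts have no background beside them.

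Chromosome 7 held 3 of the lowest values. In SW1736 the neighbours of ATP5J2, NDUFA5 and NDUFB2, all on the long arm, had medians of -1.68, -1.47 and -1.33, beside -2.53, -1.84 and -2.25 for the genes themselves. In 8505C the neighbours had medians of -0.67, -0.89 and -0.89, beside -1.58, -0.84 and -0.99. NDUFA4, on the short arm of the same chromosome, had a log2 difference of -0.20 in SW1736 and -0.07 in 8505C, with neighbours at 0.14 and 0.16. The other gene in these neighbourhoods with a shared transcript, PTCD1, stood at 6.20 FPKM in the wt and 1.87 in the PTX cells of SW1736, and at 3.70 and 1.74 in those of 8505C.

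In SW1736 the genes of chromosomes 8, 21 and X also moved in the direction of their chromosome, although they belong to different complexes. This did not hold for every chromosome. On chromosome 11, 7 respiratory genes had a median of -0.56 in SW1736, beside 0.18 for 817 others. On chromosome 22, 2 had a median of -0.96 beside 0.23 for 357 others, and on chromosome 17, 2 had -0.005 beside 0.57 for 866 others. UQCRB, COX6C and NDUFB9 lie on chromosome 8 and were between 0.96 and 1.24 higher in SW1736-PTX than in SW1736 wt, where 486 other genes of the chromosome had a median of 0.57. In 8505C wt against SW1736 wt the same genes were between 0.91 and 1.00 higher and 462 others had a median of 0.57. ATP5J, ATP5O and NDUFV3 lie on chromosome 21 and were between -1.94 and -1.27 in SW1736, with a median of -1.11 for 128 others. In 8505C they were between -0.61 and 0.03, with a median of 0.01 for 129 others. COX7B, NDUFA1 and NDUFB11 lie on chromosome X and were between -1.59 and -0.79 in SW1736, with a median of -0.83 for 467 others, and between -0.88 and 0.47 in 8505C, with a median of 0.09 for 452 others.

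Without the genes on chromosomes 7, 8, 21 and X, the correlation with the neighbours was 0.51 in SW1736 (64 genes), 0.32 in 8505C (63 genes), 0.48 for SW1736-PTX against 8505C wt and 0.75 between the wt libraries. Of the remaining genes lower beyond 0.5, 5 of 18 in SW1736 and 0 of 15 in 8505C had a neighbourhood median below -0.5. Over all compared respiratory genes, subtracting the neighbourhood median lowered their SD from 0.82 to 0.54 in SW1736 and from 0.43 to 0.40 in 8505C. Without those chromosomes the SD went from 0.626 to 0.542 in SW1736 and from 0.388 to 0.393 in 8505C. UQCR10 and UQCRFS1 stood below their surroundings, at -1.61 beside a neighbourhood median of -0.44 and at -1.19 beside -0.33 in SW1736. ATP5G1 did so in 8505C, at -1.09 beside 0.61. DNA copy number was not measured in the files, and the part of position in the differences was not tested beyond these values.

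**Figure D4:**
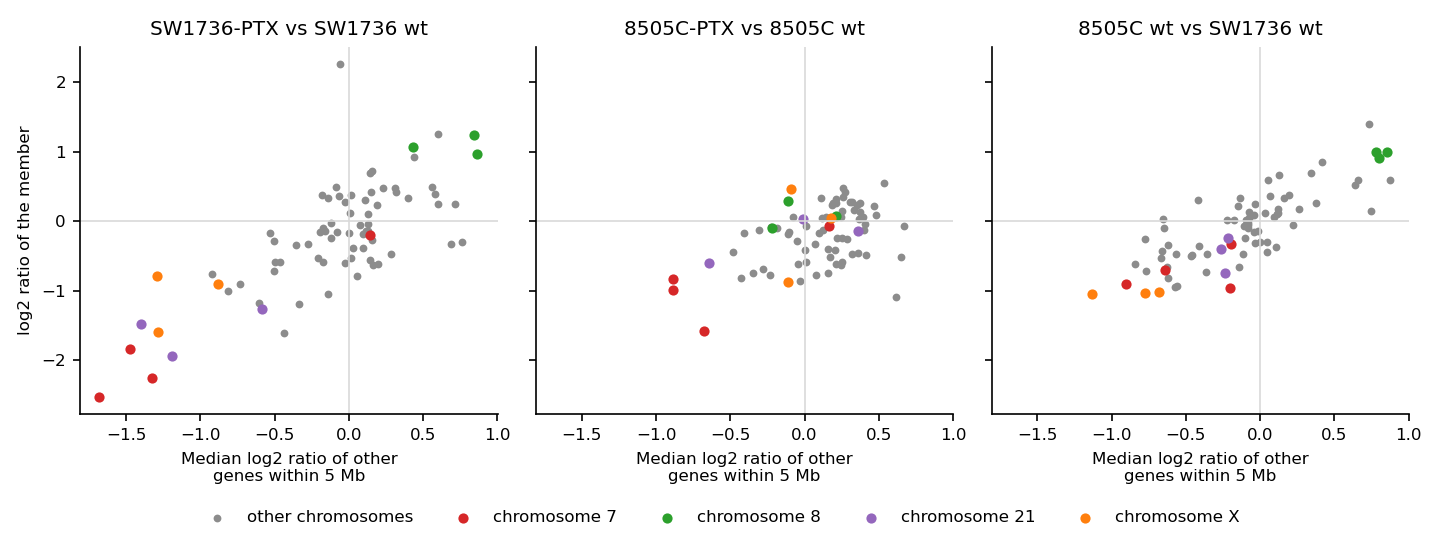
Log2 ratio of each respiratory gene (vertical axis) against the median log2 ratio of the other expressed genes within 5 Mb (horizontal axis), for SW1736-PTX against SW1736 wt (77 genes), 8505C-PTX against 8505C wt (76) and 8505C wt against SW1736 wt (76), with the genes of chromosomes 7, 8, 21 and X in colour. The points follow their neighbours at r = 0.76, 0.46 and 0.82, and the genes of one colour lie together in the first panel save for NDUFA4 of chromosome 7, near 0.

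Subunits and carriers that the name pattern leaves out were read from a list of 12, of which 10 were in the files. Cytochrome c (CYCS), which shuttles electrons from complex III to complex IV and triggers apoptosis when released, was at 56.2 FPKM (SW1736 wt) and 13.2 (SW1736-PTX), and at 41.6 (8505C wt) and 8.78 (8505C-PTX). Both resistant libraries were far lower, and the gene was called in both lines (log2 -2.09 and -2.23) and also for SW1736-PTX against 8505C wt (-1.65). Cytochrome c1 (CYC1), the partner of CYCS in complex III and a gene of chromosome 8, was at 82.7, 149, 171 and 148 FPKM (log2 0.85 and -0.20), again with SW1736 wt alone at a low level. COX4I1, the ubiquitous form of the largest nuclear subunit of complex IV, was at 293, 202, 223 and 217 FPKM (log2 -0.54 and -0.04), and its counterpart COX4I2 was listed at 0 in all libraries. NDUFA4L2, a paralogue of NDUFA4 induced by hypoxia, was at 0.143, 1.03, 0 and 0.189 FPKM and called higher in SW1736 (log2 2.22). These levels were near the limit of 0.5 FPKM, so that the ratio depends on the 0.1 added.

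Assembly factors build the complexes without being part of them, and 51 of 52 listed were in the files and compared. Their median was -0.11 in SW1736, with 1 called higher and 2 lower (15.7% and 10.2% of all genes), and -0.29 in 8505C, with 0 called higher and 2 lower (15% and 5.89% of all genes). These counts were under the background. By complex, the medians for complexes I, II, III, IV and V were -0.24, 0.16, -0.46, 0.13 and 0.42 in SW1736 and -0.43, 0.23, -0.46, -0.22 and -0.16 in 8505C. NDUFAF4, a complex I factor, stood at 7.23 FPKM in the wt and 1.03 in the PTX cells of SW1736, and at 6.74 and 1.92 in those of 8505C (log2 -2.69 and -1.76). SDHAF3, which helps to mature the iron-sulphur subunit of complex II, was at 9.61, 2.36, 4.34 and 0.146 FPKM (log2 -1.98 and -4.18). Its level in 8505C-PTX lay below 0.5 FPKM, so that the size of the second ratio depends on the 0.1 added. In both genes the resistant libraries lay below both wt libraries. ATPAF2, a factor for the F1 head, was at 3.65, 18.7, 16.3 and 22.6 FPKM (log2 2.33 and 0.47), so that SW1736 wt was the low library.

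Regulators of mitochondrial gene expression had medians of -0.40 in SW1736 and -0.47 in 8505C over 15 genes. TFAM, which packages and transcribes mitochondrial DNA, was at 22.7 FPKM (SW1736 wt) and 6.50 (SW1736-PTX), and at 20.4 (8505C wt) and 8.64 (8505C-PTX), with log2 differences of -1.79 and -1.23, the first of which was called. NRF1 was at 7.11, 3.67, 7.36 and 3.24 FPKM (log2 -0.94 and -1.16), below the limit but with each resistant library at a lower level than each wt library. The GABP subunit genes differed from each other, as GABPA was at 6.68, 3.71, 6.78 and 6.75 FPKM (log2 -0.83 and -0.01) and GABPB1 at 16.4, 9.71, 16.6 and 6.50 FPKM (log2 -0.75 and -1.34). YY1 was at 31.8, 28.1, 38.0 and 30.8 FPKM (log2 -0.18 and -0.30). The 10 genes with the NRF1 motif had a median of 0.05 in SW1736 and -0.17 in 8505C, beside -0.28 and -0.08 for the 53 compared genes with a promoter but without it. The 9 genes with the ETS motif had medians of -0.24 and -0.17, beside -0.24 and -0.11 for 54 without it. The 8 with the YY1 motif had medians of -0.21 and -0.13, beside -0.24 and -0.13 for 55 without it. The genes with the NRF1 motif thus lay slightly above the others in SW1736 and slightly below them in 8505C, which is a description of few genes.

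PPARGC1A was listed at 0 in SW1736 wt and lay at 0.656 FPKM in SW1736-PTX, 0.0645 in 8505C wt and 1.04 in 8505C-PTX. It was called higher in both resistant libraries, at levels near the limit of 0.5 FPKM. Its relative PPARGC1B was at 0.890, 0.598, 1.39 and 0.342 FPKM and was called lower in 8505C (log2 -1.75). POLG2, the accessory subunit of the mitochondrial DNA polymerase, was at 3.85, 11.7, 9.78 and 11.6 FPKM and was called higher in SW1736 (log2 1.58), with SW1736 wt as the low library.

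The citric acid cycle feeds NADH and succinate to complexes I and II, and its 13 listed genes had medians of -0.38 in SW1736 and -0.44 in 8505C. DLD, a subunit shared by the pyruvate and 2-oxoglutarate dehydrogenases, stood at 24.1 FPKM in the wt and 6.86 in the PTX cells of SW1736, and at 28.9 and 7.54 in those of 8505C and was called in both lines (log2 -1.80 and -1.92). SUCLA2, a subunit of succinyl-CoA synthetase, was at 19.4, 4.98, 16.1 and 5.93 FPKM (log2 -1.94 and -1.43). FH, the fumarase that takes up the product of complex II, was at 102, 34.1, 47.9 and 17.1 FPKM (log2 -1.57 and -1.48). The last pair were called in SW1736 and lay just inside the limit in 8505C. For all 3 genes each resistant library was below both wt libraries.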

How the data were processed

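According to the methods and labels, the authors built mRNA libraries, sequenced single-end reads of 75 bp, demultiplexed with bcl2fastq 2.20, used STAR to align to hg38, and used StringTie to quantify each locus. The deposited FPKM column is StringTie's level per gene length and depth, and the deposited TPM column is that level rescaled to a common library total. The deposited coverage column is the mean coverage per base, used here only for depth (median ratio of coverage to FPKM). The annotation version, the strand setting and the version of StringTie are not given in the sources used here.

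Entries of a repeated gene name were summed. Differences were log2((PTX + 0.1)/(wt + 0.1)) on FPKM, compared above 0.5 FPKM in at least 1 library and called beyond 1.5. Counting errors used reads estimated with GENCODE 44 transcript lengths, which may differ from the authors' annotation, and cover counting error only. Their median was 0.03 on the log2 scale in each line. Promoters were RefSeq windows on GRCh38.p14, and gene coordinates are those of the deposited files. The calls were tried on simulated data with large planted changes and counting noise only. That trial checks the code and cannot show how far cultures of one condition differ. The members and gene lists were chosen with earlier results of these data known. Named genes were those called in either line, the highest and lowest change per complex and line, the most abundant per complex, the SDH genes, paralogue sets with a restricted member, and listed genes that were called or complete or regulate the chain. Other members, and the values by position and by promoter motif, were described after their values were seen. Scripts ran in Python 3.11.15 with pandas 2.3.3, NumPy 2.4.6 and matplotlib 3.10.9.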

Additional observations from a re-analysis of the deposited data

Results flagged for a closer look

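Of the 76 respiratory genes compared in both lines, 4 were lower in SW1736 and higher in 8505C by more than 0.25 on the log2 scale (5.26%, against 8.19% of all genes), and 3 were higher in SW1736 and lower in 8505C (3.95%, against 5.91%). With 1 library per condition, the difference between the lines was not tested for any of them. SDHA, the flavoprotein of complex II, differed most, at 1.25 in SW1736 and -0.29 in 8505C. In complex I, NDUFB11 was at -0.79 in SW1736 and 0.47 in 8505C, NDUFA8 at 0.47 and -0.69, NDUFB10 at -0.54 and 0.33, NDUFA2 at -0.38 and 0.41, and NDUFB4 at 0.30 and -0.44. In complex IV, COX6B1 was at -0.59 in SW1736 and 0.26 in 8505C. For SDHA, NDUFB11, COX6B1, NDUFB4 and NDUFA2 the wt libraries differed by more than either PTX library from its wt library. Against SW1736 wt, 8505C wt lay at 1.40, -1.04, -0.94, 0.60 and -0.44 for these genes, in that order. For NDUFB10 and NDUFA8, at -0.47 and 0.01, the wt libraries differed by less than the larger PTX difference.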

How the results depend on the processing

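No paired analysis was possible because each condition has 1 library. Without replicates, a value was held to have moved when it changed by over 0.1 on the log2 scale, and a count when it changed by over 1.5 times. Of 182 counts, medians and shares under the alternatives, 164 did not move, and none changed to the opposite call. Of 314 values of named genes, 309 kept their call, which includes staying uncalled. The sign could still change, as for SDHA, at 1.25 against SW1736 wt and -0.15 against 8505C wt. Several alternatives could hardly move a value. Centring shifted SW1736 by 0.01, and taking the highest entry of a repeated name left its medians unchanged. These totals are therefore no measure of robustness. With 8505C wt as the reference of SW1736-PTX, 2 genes were called lower instead of 6, the medians of complexes I, IV and V became 0.0058, 0.083 and -0.33, and NDUFB2 (-1.29), NDUFA5 (-1.13), UQCR10 (-0.88) and COX7B (-0.58) were no longer called. COX6B2, the one gene called higher in SW1736, was lost with a pseudocount of 1 (log2 0.62) or when both libraries had to pass 0.5 FPKM, which left 0 genes. With a limit of 1, SW1736 had 4 genes called higher and 12 lower, and 8505C had 2 lower. The share of all genes beyond that limit was not computed, so these counts have no background beside them. With any gene above 0 FPKM kept, 8505C had 1 gene called higher and 2 above 0.5, which adds COX6B2. Centring on the median of all genes, a shift of 0.11 in 8505C, left 0 genes above 0.5 there and moved the median of the respiratory genes to -0.23 and those of complexes I to V to -0.20, -0.46, -0.35, -0.12 and -0.50. Neighbourhoods of 2 or 10 Mb, chosen after seeing the data, gave r = 0.71 and 0.73 in SW1736. Depth limits only the genes with few reads, such as COX6B2 and PPARGC1A, while the missing replicates limit every value.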
